A study of Mus musculus with 25 samples.

Results

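The liver X receptors (LXRs) and the genes they are best known for in sterol export were examined in mouse liver RNA sequencing. The set holds 8 of the 41388 Ensembl genes counted, chosen by symbol: the receptors Nr1h2 (LXR beta) and Nr1h3 (LXR alpha), the transporters Abca1, Abcg1, Abcg5 and Abcg8, the phospholipid enzyme Lpcat3, and Mylip, which encodes the ubiquitin ligase IDOL. All 8 passed the filter on low counts. The 25 libraries came from livers of male C57B/6J mice aged 20 weeks that had received AAV8, a liver-tropic virus, carrying an empty vector (EV) or NAMPT, the rate-limiting enzyme of the salvage route to NAD. Expression from the vector was driven by the thyroxine binding globulin promoter, which is active in hepatocytes. The groups were chow WT EV (n = 3), Western diet (WD) WT EV (n = 6), WD WT NAMPT (n = 6), WD LKO EV (n = 5) and WD LKO NAMPT (n = 5), with the diet given for 12 weeks. WT mice were littermates with floxed Sirt1 alleles and no Cre, and LKO mice carried the same alleles with Albumin-cre, which acts in hepatocytes. Chow was given to 1 genotype and 1 vector only, so the diet comparison rests on the WT EV groups.

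LXRs are nuclear receptors that sit on DNA with a retinoid X receptor partner and are switched on by oxysterols and by desmosterol, so that they act as sensors of cell cholesterol. Their targets move sterol out of cells and limit its uptake: ABCA1 and ABCG1 load cholesterol onto HDL particles, the ABCG5 and ABCG8 proteins form a single transporter that sends sterols from hepatocytes into bile, LPCAT3 places polyunsaturated chains into membrane phospholipids, and IDOL limits the uptake of lipoprotein cholesterol. In liver, LXR alpha also drives fatty acid synthesis through SREBP-1c, while falling sterol levels are sensed by a separate factor, SREBP2, which turns on cholesterol synthesis.

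Abcg5 and Abcg8 lie head to head on chromosome 17, and the short stretch between their starts is shown because it is the sequence that both genes share. In the files' annotation, Abcg5 (ENSMUSG00000040505) covers chr17:84658234-84683011 on the minus strand in 13 exon blocks and Abcg8 (ENSMUSG00000024254) covers chr17:84676302-84700333 on the plus strand in 14, so that the gene bodies overlap and share 82 exonic bases on opposite strands. RefSeq (GRCm38.p6) also gives Abcg8 a start at 84683121, which leaves 109 bases, chr17:84683012-84683120, between that start and the Abcg5 start at 84683011. They are printed on the plus strand, with both matches to the GATA factor motif AGATAA in capitals, where they read as its reverse complement.
Abcg5 and Abcg8 shared upstream stretch: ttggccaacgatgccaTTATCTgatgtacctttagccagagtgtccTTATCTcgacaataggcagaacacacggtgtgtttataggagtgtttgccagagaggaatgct
On both strands, AGATAA occurs in 9.99% of the 250-base upstream sequences of all 32851 promoters listed. The stretch holds no AGGTCA, the hexamer bound by many nuclear receptors, and no DR4, the repeat of that hexamer with a 4-base spacer that LXR and its partner prefer, even with 3 mismatches allowed.

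The 250 bases upstream of Abca1 (ENSMUSG00000015243, chromosome 4, minus strand) are shown because this promoter is the textbook site of LXR action on a sterol transporter. They lie at chr4:53159896-53160145 and are printed 5′ to 3′ on the strand of the gene, with the hexamers of the 1 DR4-like match in capitals.
Abca1 upstream sequence: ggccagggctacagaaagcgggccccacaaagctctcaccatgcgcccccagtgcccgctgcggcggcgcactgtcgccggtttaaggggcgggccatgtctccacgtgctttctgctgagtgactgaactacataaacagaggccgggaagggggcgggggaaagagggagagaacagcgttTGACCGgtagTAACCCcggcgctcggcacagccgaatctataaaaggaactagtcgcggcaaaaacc
The match spans positions -67 to -52 from the start, reads on the opposite strand and has 3 mismatches to a perfect repeat of AGGTCA. A match of this quality on either strand occurs in 18.5% of all promoters listed. Promoter sequence was at hand for 7 of the 8 genes, and the upstream sequences of Nr1h2, Nr1h3, Lpcat3 and Mylip held no such match.

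Sirt1 did not separate the libraries labelled LKO from those labelled WT: its level was 8.57 ± 1.34 CPM (SD, n = 5) in WD LKO EV, beside 8.86 ± 0.57 CPM (SD, n = 6) in WD WT EV. With NAMPT the level was 9.82 ± 1.36 CPM (SD, n = 5) in LKO, beside 8.58 ± 0.62 CPM (SD, n = 6) in WT, so the labels could not be checked from its level and the libraries are named by label throughout. Nampt stood at 59.5 ± 10.6 CPM (SD, n = 6) in WD WT NAMPT and 47.4 ± 6.46 CPM (SD, n = 6) in WD WT EV. In LKO its level was 79.9 ± 28.4 CPM (SD, n = 5) with NAMPT, beside 56.1 ± 12.0 CPM (SD, n = 5) with the empty vector. It was not called for the vector in WT (log2 fold change 0.34, limma adjusted p = 0.144) or in LKO (0.41, limma adjusted p = 0.403). The library of chow replicate 3 stood apart from the other chow libraries for several of the genes below and carried a weight of 0.61 in the fit, against 1.80 and 2.5 for replicates 1 and 2. Total counts ran from 20166175 to 32937326 per library. The defining hepatocyte gene Alb averaged between 37189 and 48064 CPM in the 5 groups. Of 8 hepatocyte markers, 2 were called lower on Western diet, Cps1 (log2 fold change -1.22 ± 0.25, SE) and Tat (-0.95 ± 0.21), and 0 higher, with a list median of -0.22, where 12.0% of all genes were called lower. Their summed level ran from 76354 to 87058 CPM on chow and from 62614 to 78521 CPM in WD WT EV, and their part in the diet differences below was not tested.

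Western diet went with higher levels of most of the sterol export genes, and Abcg5 and Abcg8 changed most. Between WD WT EV and chow WT EV, 6 of the 8 genes were called at an adjusted p of 0.05 or less, all of them higher, where 22% of the 14065 genes tested were called and 10.1% were called higher. Their median log2 fold change was 0.59, against -0.0047 over all genes tested. The WD WT EV and chow ranges were separate for 5 of the 8 genes (Abcg1, Abcg5, Abcg8, Lpcat3 and Mylip), where 16.1% of all genes had no overlap. In a bulk liver sample, a change in the number of cells of a type and a change in RNA per cell cannot be told apart.

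Among the receptors, Nr1h3 was not called between diets. It stood at 91.3, 93.7 and 96.6 CPM in the chow libraries, and its lowest, median and highest values in WD WT EV were 75.8, 92.0 and 115 CPM. The Western diet libraries spread to both sides of the chow range, and the log2 fold change was -0.01 with a 95% interval from -0.17 to 0.15. Nr1h2 stood at 26.8, 26.6 and 39.0 CPM on chow and at 32.4, 37.5 and 40.7 CPM (lowest, median, highest) in WD WT EV. Thus 2 of the chow libraries lay below every Western diet library, while chow replicate 3 exceeded 5 of the 6. Nr1h2 was called with a log2 fold change of 0.41 ± 0.08 (SE) and an adjusted p of 0.0011 in limma, but the call depended on the sample weights: without sample weights the log2 fold change was 0.27 and the limma adjusted p 0.127, and the adjusted p was 0.152 by the edgeR quasi-likelihood test and 0.137 by DESeq2. The call was also lost without chow replicate 1 (adjusted p = 0.328) and without chow replicate 2 (adjusted p = 0.357).

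Abcg5 and Abcg8, which together make the biliary sterol transporter, rose in every Western diet library. Abcg5 stood at 23.2, 29.4 and 70.7 CPM in the chow libraries and at 115, 183 and 277 CPM (lowest, median, highest) in WD WT EV. The lowest Western diet library was above the highest chow library, and chow replicate 3 was the highest of the chow group. The log2 fold change was 2.55 ± 0.23 (SE), a 5.84-fold difference, with a limma adjusted p of 3.6e-08, and it was 1.93 without chow replicate 1 (adjusted p = 0.000195). Abcg8 stood at 40.2, 58.6 and 128 CPM on chow and at 144, 233 and 444 CPM (lowest, median, highest) in WD WT EV. The groups again did not overlap, although the gap between the highest chow and the lowest Western diet library was small. Its log2 fold change was 2.02 ± 0.24 (SE), a 4.06-fold difference, with a limma adjusted p of 3.2e-06, and it was 1.39 without chow replicate 1 (adjusted p = 0.0065). Across all 22 Western diet libraries, whatever the genotype or vector, both genes stayed above the highest chow value. Because the 2 genes share exonic bases and no source used here states a strand setting for the counting, reads in the shared 82 bases cannot be placed on one gene.

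Abcg1, which exports sterol to HDL from macrophages and other cells, stood at 9.48, 9.51 and 12.4 CPM on chow and at 16.7, 22.3 and 26.03 CPM (lowest, median, highest) in WD WT EV. The groups did not overlap, and the log2 fold change was 1.10 ± 0.22 (SE), a 2.15-fold difference, with a limma adjusted p of 0.00116. The call was lost without sample weights (log2 fold change 1.01, limma adjusted p = 0.070), without chow replicate 1 (0.066) and without chow replicate 2 (0.082), and with 2 surrogate variables the log2 fold change was 0.68 (adjusted p = 0.00023). Abca1, which starts HDL formation by moving cholesterol and phospholipid to apolipoprotein A-I, did not pass the test. It stood at 343, 375 and 318 CPM on chow and at 320, 419 and 508 CPM (lowest, median, highest) in WD WT EV. Of the 6 Western diet libraries, 5 were above every chow library and 1 fell within the chow range. Its log2 fold change was 0.20 ± 0.09 (SE) with a limma adjusted p of 0.091. DESeq2 put the adjusted p at 0.047, and the limma adjusted p was 0.0166 without WD WT EV replicate 4, the lowest library of that group. The log2 fold change was 0.12 with the replicate block (limma adjusted p = 0.364) and 0.15 without WD WT EV replicate 8 (0.198).

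Lpcat3 stood at 120, 108 and 129 CPM on chow and at 150, 158 and 191 CPM (lowest, median, highest) in WD WT EV. It rose by a log2 fold change of 0.51 ± 0.08 (SE), a 1.43-fold difference, with a limma adjusted p of 0.00011, and the groups did not overlap. Mylip stood at 9.76, 12.4 and 9.07 CPM on chow and at 15.3, 16.9 and 22.5 CPM (lowest, median, highest) in WD WT EV, again without overlap. It rose by 0.67 ± 0.13 (SE) on the log2 scale, a 1.59-fold difference, with a limma adjusted p of 0.00074. Lpcat3 shares 38 exonic bases with Emg1 on the other strand, and Emg1 had between 416 and 1194 counts per library, against at least 2425 for Lpcat3.

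**Figure D1:**
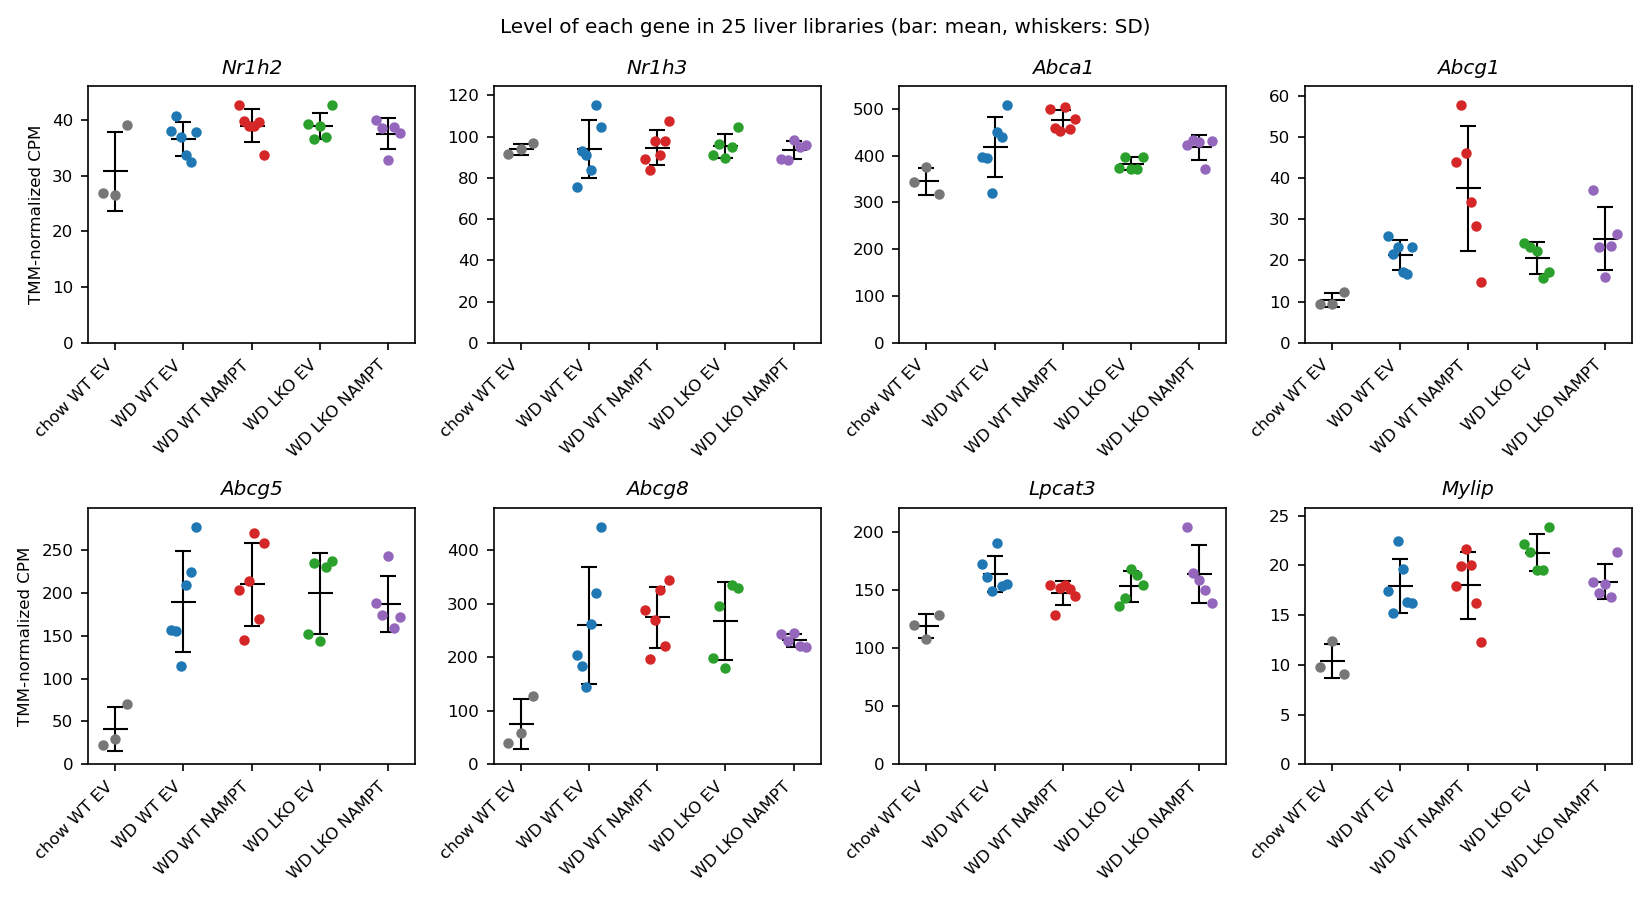
Level of each of the 8 genes in TMM-normalized CPM (vertical axes, each starting at 0) for every library, by group; points are libraries, the horizontal bar is the group mean and the whiskers are 1 SD. Abcg1, Abcg5, Abcg8 and Lpcat3 are above the highest chow library in all 22 Western diet libraries, and Mylip is in 21 of them.

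Per unit of transcript length, the genes were ordered by their group means. On chow, Nr1h3 (37.3 ± 1.06 CPM per kb, SD), Lpcat3 (36.4 ± 3.17) and Abca1 (33.3 ± 2.76) came first (n = 3 each), and neighbours in this order overlapped within mean ± SD. Abcg8 (20.2 ± 12.4 CPM per kb, SD, n = 3) and Abcg5 (15.1 ± 9.51) followed and could not be ordered within their spread. In WD WT EV, Abcg5 (69.9 ± 21.6 CPM per kb, SD, n = 6) and Abcg8 (69.2 ± 29.2) came first and did not differ beyond their spread. They were followed by Lpcat3 (50.2 ± 4.74), Abca1 (40.4 ± 6.15) and Nr1h3 (37.3 ± 5.64), and here too neighbours in the order overlapped within mean ± SD. Nr1h2, Mylip and Abcg1 were the 3 lowest in every group. Within a library, Nr1h3 exceeded Nr1h2 per unit of length by 3.45-fold on average (SD 0.58, n = 25), with a range from 2.67 to 4.76. The ratio of Abcg5 to Abcg8 per unit of length was 0.75 ± 0.05 (SD, n = 3) on chow and 1.05 ± 0.11 (SD, n = 6) in WD WT EV. The chow ratios ran from 0.69 to 0.80, below all 6 WD WT EV ratios, which ran from 0.86 to 1.17.

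Abcg5 and Abcg8 also moved together between libraries of the same group. After the group means were removed, Pearson's r of their log2 CPM was 0.96 and Spearman's rho was 0.95 over 25 libraries (two-sided permutation within groups, p = 1e-05 for each, the smallest that 100000 resamples can give; adjusted p = 0.00028 for each over 28 pairs of genes). Without the 2 libraries farthest from the median of Abcg5, r was 0.94. Within the 6 WD WT EV libraries r was 0.98, and within the 6 WD WT NAMPT libraries it was 0.97. A total of 3 of the 28 pairs passed at an adjusted p of 0.05 or less by Pearson's r. The second was Nr1h2 with Abcg1 (r = 0.57, permutation p = 0.00071, adjusted p = 0.0099; rho = 0.55, permutation p = 0.0060, adjusted p = 0.081), with r of 0.53 without the 2 libraries farthest from the median. The third was Nr1h3 with Abcg1 (r = -0.53, permutation p = 0.0044, adjusted p = 0.041; rho = -0.47, permutation p = 0.037, adjusted p = 0.206), whose r turned to 0.18 when only library size was used for scaling. Only the Abcg5 and Abcg8 pair passed by both coefficients. The genes of a pair are read from the same libraries and share their depth and composition.

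**Figure D2:**
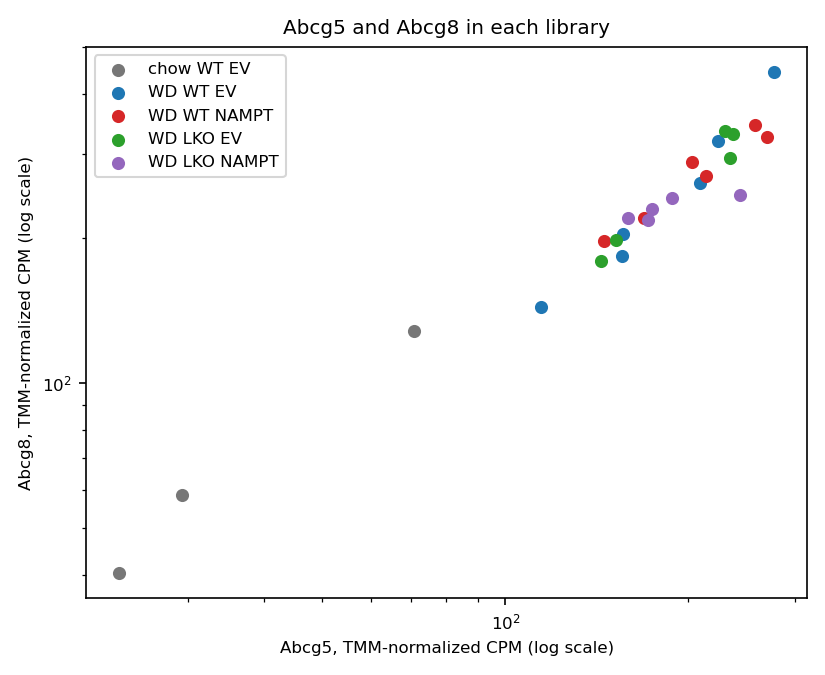
Abcg5 (horizontal) against Abcg8 (vertical) in TMM-normalized CPM on log scales, with 1 point per library coloured by group. The chow libraries lie at the lower left, between 23.2 and 70.7 CPM of Abcg5, and the 22 Western diet libraries lie at the upper right, from 115 to 277 CPM.

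Between the NAMPT and EV vectors on Western diet, 1 of the 8 genes was called in mice labelled WT, a share near that of all genes. Abcg1 was called higher in WD WT NAMPT than in WD WT EV, where 13.4% of all genes tested were called and 7.67% were called higher. The median log2 fold change of the 8 genes was 0.18, against 0.0041 over all genes tested. None of the 8 had groups without overlap, which 0.96% of all genes had. The 6 WD WT EV libraries served as the reference here and as the treated group in the diet comparison, so both sets of fold changes share them.

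Abcg1 had its lowest, median and highest values at 14.7, 39.0 and 57.7 CPM in WD WT NAMPT, against 16.7, 22.3 and 26.03 CPM in WD WT EV. Of the 6 NAMPT libraries, 5 were above every EV library, while replicate 6 was below all of them. Replicate 6 carried a weight of 0.34 in the fit, the lowest of any library, and replicate 2, the highest for Abcg1, carried 0.40. The log2 fold change was 0.79 ± 0.18 (SE), a 1.73-fold difference, with a limma adjusted p of 0.0121. The call was lost without sample weights (log2 fold change 0.72, limma adjusted p = 0.085), without NAMPT replicate 3 (0.64, adjusted p = 0.070) and with 2 surrogate variables (0.20, adjusted p = 0.301). Abca1 had 453, 469 and 505 CPM (lowest, median, highest) in WD WT NAMPT, within the range of WD WT EV. Its log2 fold change was 0.22 ± 0.08 (SE) with a limma adjusted p of 0.081, and it was called without WD WT EV replicate 8 (adjusted p = 0.0333). The other 6 genes had log2 fold changes between -0.12 (Lpcat3) and 0.31 (Abcg5), none with an unadjusted limma p below 0.05. For Abcg5 the 95% interval ran from -0.14 to 0.77, and for Abcg8 from -0.23 to 0.80.

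Some markers of myeloid cells differed between the same groups, and the summed recruited macrophage markers varied with Abcg1 across the WD WT NAMPT libraries. Of 10 markers of recruited macrophages, 5 were called higher in WD WT NAMPT than in WD WT EV (Itgax, Trem2, Itgam, Lyz2 and Cd68) and 0 were called lower, with a median log2 fold change of 1.20 over the list, where 7.67% of all genes were called higher. Their summed level in WD WT NAMPT was 452, 570, 393, 276, 208 and 92.0 CPM in replicates 1 to 6, where Abcg1 stood at 43.8, 57.7, 46.2, 34.1, 28.3 and 14.7 CPM. Replicate 2 was the highest and replicate 6 the lowest in both. In WD WT EV the summed level ran from 84.9 to 231 CPM and on chow from 95.9 to 116 CPM. Of 8 Kupffer cell markers, 3 were called higher (Marco, Adgre1 and Cd5l), and the summed level ran from 517 to 876 CPM in WD WT NAMPT and from 310 to 580 CPM in WD WT EV. Of 5 neutrophil markers that passed the filter, 2 were called higher (S100a9 and Csf3r), with summed levels from 3.72 to 28.7 CPM in WD WT NAMPT and from 2.81 to 8.40 CPM in WD WT EV. The defining neutrophil gene Ly6g was at 0 in 18 of the 25 libraries and did not exceed 0.085 CPM. In the diet comparison, 2 of the 10 recruited macrophage markers (Ly6c2 and Cd68) were called higher, with a median log2 fold change of 1.12 over the list. There, 10.1% of all genes were called higher and 22% were called in either direction. Of the 8 Kupffer cell markers, 2 were called higher there (Cd5l and Folr2) and 1 lower (C6). The median of their summed level was 396 CPM in WD WT EV and 405 CPM on chow. Of 7 stellate cell markers, 2 were called higher in WD WT NAMPT than in WD WT EV, Col1a1 (1.70 ± 0.48, SE) and Des (0.66 ± 0.16), and 0 lower. Their summed level ran from 294 to 518 CPM in WD WT NAMPT and from 289 to 419.9 CPM in WD WT EV. Of 7 endothelial markers, 1 was called higher and 1 lower in WD WT NAMPT than in WD WT EV. The T cell, B cell, cholangiocyte and hepatocyte lists had 0 calls there, with median log2 fold changes of 0.80, 0.55, 0.01 and -0.12. The part of these cells in the Abcg1 result was not tested.

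**Figure D3:**
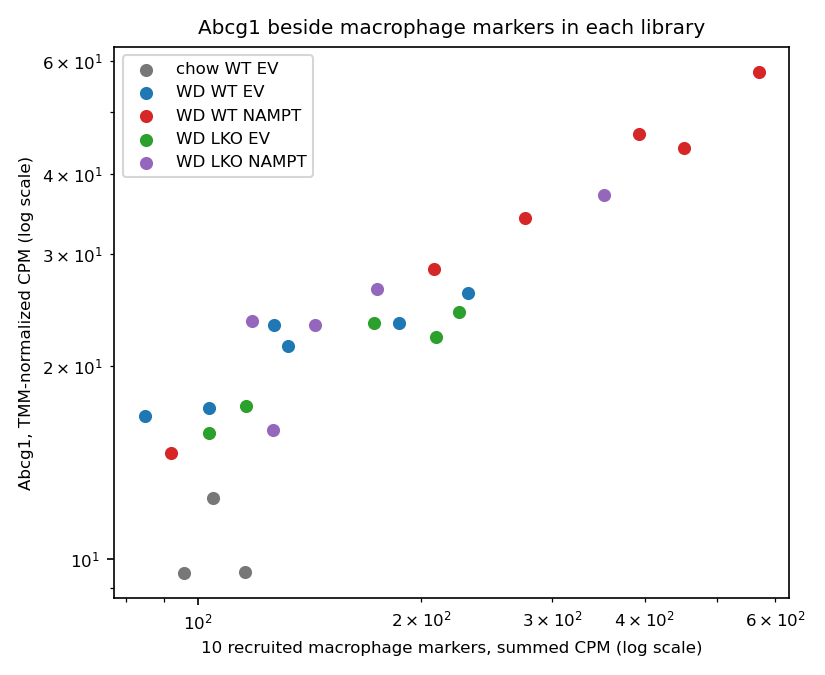
Summed CPM of 10 recruited macrophage markers (horizontal) against Abcg1 CPM (vertical) on log scales, with 1 point per library coloured by group. In WD WT NAMPT both measures are lowest in replicate 6 (92.0 and 14.7 CPM) and highest in replicate 2 (570 and 57.7 CPM), while the chow libraries have the lowest Abcg1, at 9.48 to 12.4 CPM.

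In mice labelled LKO, none of the 8 genes was called between WD LKO NAMPT and WD LKO EV by limma, by edgeR or by DESeq2, and 0 had an unadjusted limma p below 0.05, beside 9.63% of all genes. In this comparison 0.00711% of all genes tested were called, which is 1 gene. The log2 fold changes ran from -0.21 (Mylip) to 0.25 (Abcg1, 95% interval -0.13 to 0.64). Abcg1 had 15.9, 23.2, 23.6, 26.4 and 37.0 CPM in WD LKO NAMPT and 15.7, 17.3, 22.2, 23.4 and 24.3 CPM in WD LKO EV, listed from low to high, and the groups overlapped. Abca1 stood above the highest WD LKO EV library in 4 of 5 WD LKO NAMPT libraries. None of the 8 was without overlap, against 1.15% of all genes.

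The difference between both NAMPT effects was tested as an interaction. None of the 8 genes was called by limma, edgeR or DESeq2 (which gave no adjusted p for Abcg1 or Mylip), where 0.00711% of all genes were called. Of the 8 genes, 2 had an unadjusted limma p below 0.05, a threshold that 21.2% of all genes passed. For Abcg1 the NAMPT effect in LKO minus that in WT was -0.54 ± 0.26 (SE) on the log2 scale (limma adjusted p = 0.230), and it was -0.0047 with 2 surrogate variables (adjusted p = 0.991). For Mylip it was -0.35 ± 0.16 (SE; limma adjusted p = 0.195), and -0.11 with 2 surrogate variables (adjusted p = 0.808). Hence the call of Abcg1 in WT and its absence in LKO were not shown to differ.

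Between genotypes, none of the 8 was called on either vector by limma, edgeR or DESeq2. With the empty vector, 0.00711% of all genes were called between WD LKO EV and WD WT EV, and no member was without overlap where 0.59% of all genes were. At an unadjusted limma p below 0.05, which 6.33% of all genes reached, stood 1 of the 8 genes, Mylip. It had 19.5, 19.6, 21.3, 22.1 and 23.9 CPM in WD LKO EV against 15.3, 16.9 and 22.5 CPM (lowest, median, highest) in WD WT EV. Its log2 fold change was 0.29 ± 0.11 (SE; limma adjusted p = 0.661), and 0.13 with the replicate block (adjusted p = 0.887). With NAMPT, 7.96% of all genes were called between WD LKO NAMPT and WD WT NAMPT, and 2 of the 8 genes had an unadjusted limma p below 0.05, beside 28.6% of all genes. Abcg1 had a log2 fold change of -0.58 ± 0.18 (SE; limma adjusted p = 0.052). With 2 surrogate variables the value was -0.12 (adjusted p = 0.535), and the gene was called in 5 of 11 fits with 1 library left out at a time: without WD WT NAMPT replicate 4, 5 or 6, and without WD LKO NAMPT replicate 1 or 4 (adjusted p from 0.0085 to 0.0498). Abca1 was the 1 gene of the 8 whose groups did not overlap, where 1.39% of all genes had no overlap: WD LKO NAMPT libraries had 372, 423, 430, 431 and 434 CPM, all below the lowest WD WT NAMPT library at 453 CPM. Its log2 fold change was -0.19 ± 0.09 (SE; limma adjusted p = 0.167). The recruited macrophage markers had a median log2 fold change of -0.91 in this comparison, with 2 of 10 called lower (Itgam and Lyz2) and 0 higher. The list median was -1.08 for neutrophil markers (Csf3r called lower), -0.59 for Kupffer cell markers (Marco called lower) and -0.68 for cholangiocyte markers (Sox9 called lower). It was -0.72 for T cell, -0.34 for stellate, 0.10 for endothelial and 0.12 for B cell markers, with 0 called in each list. Of the 8 hepatocyte markers, 1 was called lower, with a list median of 0.03. The part of these cells in the values above was not tested.

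**Figure D4:**
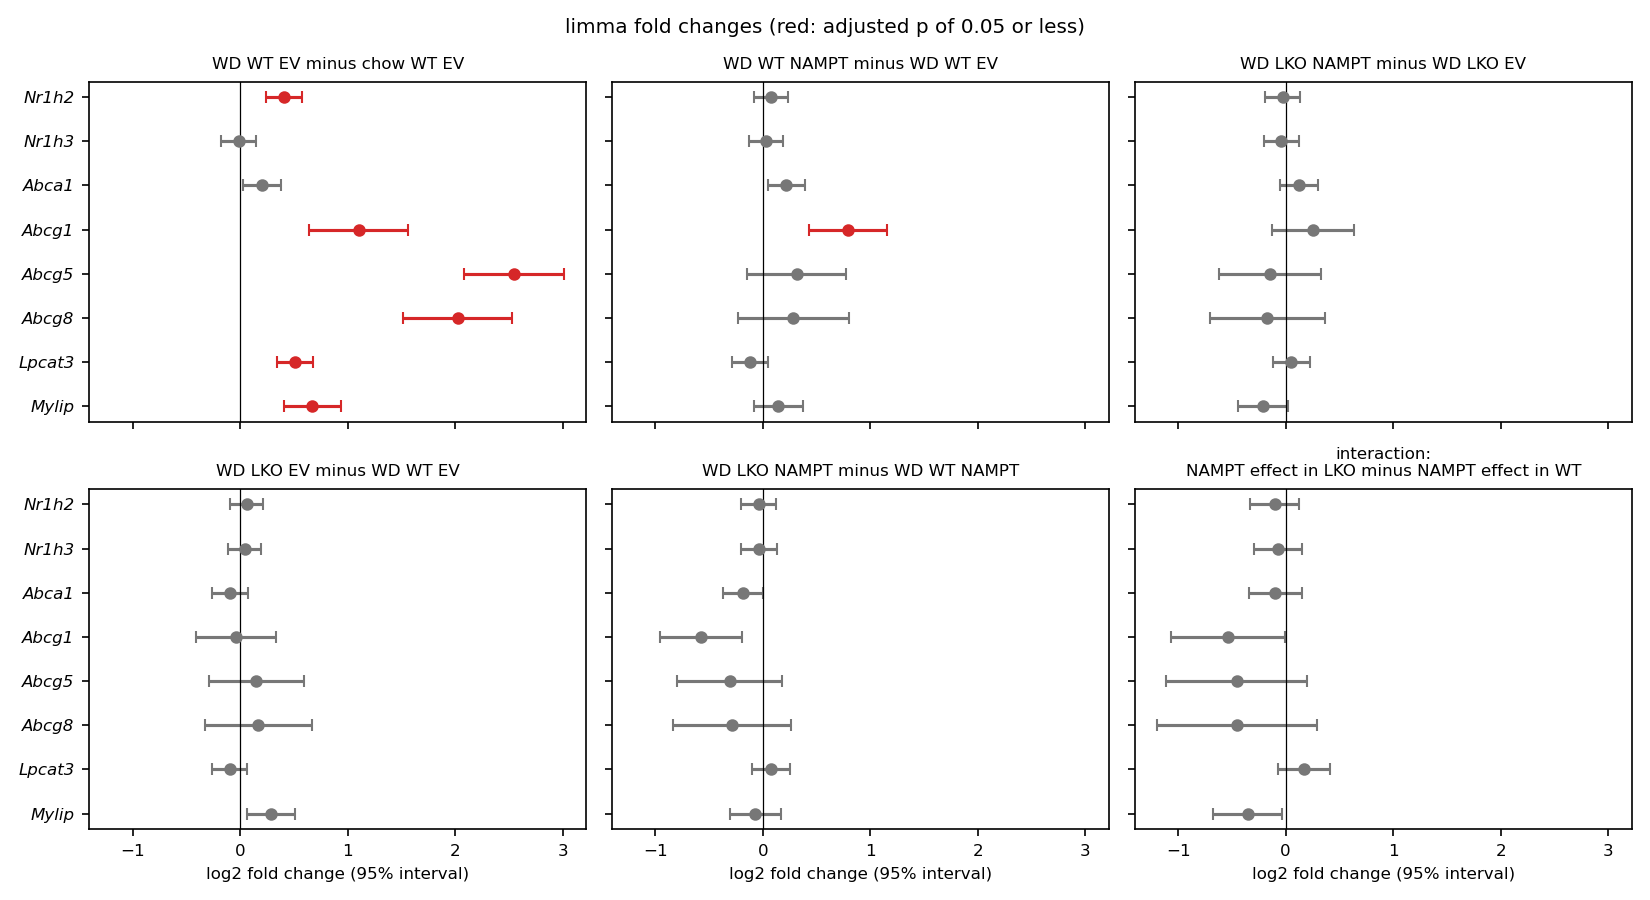
Log2 fold change of the 8 genes in the 6 comparisons, from the limma fit, with 95% intervals as bars. Red marks an adjusted p of 0.05 or less, which holds for 6 genes between diets and for Abcg1 with NAMPT in WT, and for none in the other 4 panels.

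Genes around the LXR pathway were taken from fixed lists, which overlap. Apoe and Pltp are among both the other LXR targets and the HDL genes, and Scarb1 is among both the HDL genes and the uptake genes. Of 15 other LXR targets, 7 were called higher on Western diet and 0 lower, where 10.1% of all genes were called higher, with a median log2 fold change of 0.48. The largest were Scd1, a fatty acid desaturase (2.95 ± 0.21, SE, limma adjusted p = 8.7e-10), Srebf1, which encodes SREBP-1c (1.63 ± 0.19, adjusted p = 1.8e-06), and Apoc2, the lipoprotein lipase activator (1.52 ± 0.14, adjusted p = 4.4e-08). Cyp7a1, the rate-limiting enzyme of bile acid synthesis and an LXR target in mice, stood lower on average (log2 fold change -1.26 ± 0.49, limma adjusted p = 0.067) and was not called. The 14 SREBP2 targets of cholesterol synthesis were all called lower, with a median log2 fold change of -2.23. Squalene epoxidase (Sqle) stood at 111 ± 45.4 CPM (SD, n = 3) on chow and 5.18 ± 3.21 CPM (SD, n = 6) in WD WT EV, a log2 fold change of -4.74 ± 0.33 (SE, limma adjusted p = 4.9e-10). Idi1 (-3.87 ± 0.21) and Msmo1 (-3.09 ± 0.26) followed.

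Other lists had mixed differences between diets, to be read against the 22% of all genes called there. Of 9 enzymes that make or clear oxysterol and desmosterol ligands, 4 were called lower (Cyp51, Cyp3a11, Cyp7b1 and Ebp) and 1 higher, Cyp46a1, which makes an oxysterol from cholesterol (1.84 ± 0.44, SE, limma adjusted p = 0.0040). Of 10 genes of HDL acceptors and remodelling, 5 were called higher, led by Apoa4 (4.76 ± 0.30, adjusted p = 6.5e-11), and 1 lower, Apom (-1.05 ± 0.15). Of 10 partners and coregulators of LXR, 1 was called higher (Rxrg, 0.56 ± 0.13) and 1 lower (Med1, -0.26 ± 0.07), while Rxra, the main partner in liver, had a log2 fold change of 0.11 ± 0.12 (SE), so the share of these 10 genes that was called lay near that of all genes. Of 13 genes of cholesterol uptake, esterification and lysosomal release, 5 were called higher and 2 lower, among them Stard4, a sterol carrier (-0.83 ± 0.19). Of 12 ABCA and ABCG relatives and canalicular transporters, 2 were called higher, Abcb4, the phospholipid pump of the bile canaliculus (0.61 ± 0.09), and Abcg2 (0.58 ± 0.16), and 5 lower, led by Abca8a (-1.22 ± 0.21). Of 8 lysophospholipid acyltransferases other than Lpcat3, 4 were called higher and 0 lower, with Agpat3 (0.51 ± 0.08) the largest.

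With NAMPT in WT, the same lists are read against the 13.4% of all genes called. Of the 15 other LXR targets, 2 were called higher, Lpl, lipoprotein lipase (1.44 ± 0.30, SE, limma adjusted p = 0.0092), and Arl4c, a small GTPase (0.91 ± 0.24, adjusted p = 0.018), and 2 lower, among them Mlxipl, the glucose-responsive factor ChREBP (-0.40 ± 0.13). Of the 13 genes of cholesterol uptake, esterification and lysosomal release, 1 was called. It was Soat1, the cholesterol esterifying enzyme abundant in macrophages, and it was higher (0.80 ± 0.19, adjusted p = 0.0136). Of the ligand enzymes, Cyp46a1 (-2.17 ± 0.42, adjusted p = 0.0075), Cyp27a1 (-0.64 ± 0.17) and Hsd3b7 (-0.45 ± 0.12) were called lower and 0 were called higher. Of the 14 SREBP2 targets 1 was called, Hmgcs1 (-0.94 ± 0.23, adjusted p = 0.0137), and of the 10 partners and coregulators 0 were called by limma. Of the 8 lysophospholipid acyltransferases, 2 were called higher, Lpcat2 (0.82 ± 0.23) and Agpat1 (0.42 ± 0.10), and 2 lower, among them Agpat2 (-0.46 ± 0.15). Of the 12 ABCA and ABCG relatives, Abcg3 (0.95 ± 0.25) was called higher and Abcg2 (-0.52 ± 0.15) lower, and of the 10 HDL genes Apoa2, a main HDL protein, was called lower (-0.57 ± 0.14). Between WD LKO NAMPT and WD LKO EV, limma called 0 genes in each of the 8 lists, where 0.00711% of all genes were called.

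**Figure D5:**
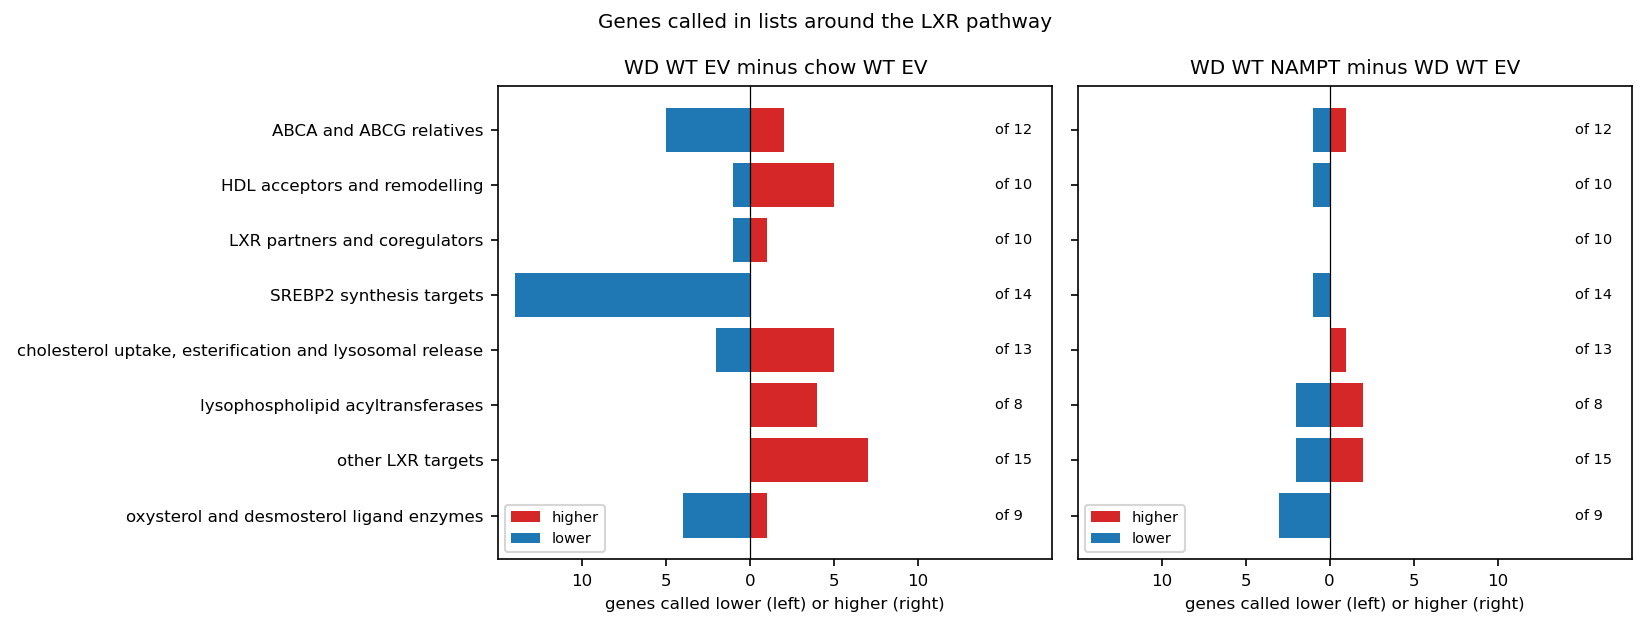
Number of genes called lower (left of 0, blue) or higher (right of 0, red) in 8 lists around the LXR pathway, with the number tested in each list at the right. Apoe, Pltp and Scarb1 are counted both in the HDL list and in another list. All 14 SREBP2 targets are lower and 7 of 15 other LXR targets are higher between diets, while the NAMPT comparison in WT has at most 3 calls in a direction in any list.

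The genes most like each member over all 25 libraries were named by Pearson's r of log2 CPM, as a description. Abcg8 was nearest to Abcg5 (r = 0.98), followed by Dbp, a transcription factor and output gene of the circadian clock (r = 0.91). Dbp stood at 0.62, 1.25 and 5.13 CPM in chow replicates 1 to 3, in the same order as Abcg5, and at 8.79 to 51.3 CPM in WD WT EV. For Abcg1 the nearest were Itgb2, the leukocyte integrin chain CD18 (r = 0.98), and Ear2, an eosinophil-associated ribonuclease (r = 0.98). For Mylip they were Wfdc2 (r = 0.84) and Tmem184b (r = 0.83), for Lpcat3 Eda (r = 0.82) and Scd4 (r = 0.80), and for Abca1 Pyroxd1 (r = 0.79) and Zbtb1 (r = 0.75). For Nr1h2 they were Tyk2 (r = 0.82) and Ttyh3 (r = 0.80), for Nr1h3 Psmd9 (r = 0.77) and Mrpl58 (r = 0.77), and for Abcg8, after Abcg5, 1700001L05Rik (r = 0.90). These values hold the differences between diets as well as those between libraries of a group.

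Clock genes differed between diets in the same libraries. Of 15 clock genes, 6 were called higher and 4 lower in WD WT EV than in chow WT EV, where 22% of all genes were called, among them Dbp (log2 fold change 4.04 ± 1.17, SE, limma adjusted p = 0.0157), Npas2 (-1.59 ± 0.39, adjusted p = 0.0056) and Arntl (-1.58 ± 0.30, adjusted p = 0.00059). In WD WT NAMPT against WD WT EV, 4 were called lower and 0 higher, where 13.4% of all genes were called. For WD LKO NAMPT against WD LKO EV, 0 were called, where 0.00711% of all genes were called. The labels give no hour of tissue collection, and the part of the clock in the differences of Abcg5, Abcg8 and the other members was not tested.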

How the data were processed

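Liver RNA was poly-A selected and sequenced in 25 libraries. The authors aligned reads to GRCm38 with STAR (2.5.1a in the submitters' processing notes) and counted them per gene with featureCounts (1.4.6-p5). The deposited files hold raw counts for 41388 genes, and beside them CPM and RPKM from the authors. Recomputing both from counts and gene lengths gave a largest relative deviation of 5.9e-14, so the analysis started from the counts. The strand setting of the counting is not given in the sources used here. The general treatment text names the vector insert as SIRT1, while the sample titles and the series design name NAMPT, which was followed.

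Genes above 1 CPM in at least 2 libraries were kept, and 4 ribosomal RNA genes were left out, leaving 14065. Counts were scaled by TMM (edgeR 4.0.16) and fitted with voomWithQualityWeights (limma 3.58.1, R 4.3.3), with 1 mean per group over all 25 libraries. Benjamini-Hochberg adjustment of the limma p-values covered all 14065 genes, and an adjusted p of 0.05 or less was a call. CPM in the text are TMM-normalized, and CPM per kb are those values divided by the files' gene length. Correlations used log2(CPM + 0.5) with group means removed and 100000 resamples within groups. Alternatives were the edgeR quasi-likelihood test, DESeq2 1.42.0, RLE factors, library size only, no filter, only the groups compared, a replicate block, 2 surrogate variables (sva 3.50.0), leaving out each library, another pseudocount and, chosen after seeing the data, no sample weights.

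Tested on simulated data with 200 of 14065 genes changed 2-fold, the limma procedure recovered 60% in the diet comparison (5 false calls), 74% for NAMPT in WT (7 false calls), 75.5% for genotype with NAMPT (2 false calls) and 61% for the interaction (7 false calls). The simulated libraries were independent and of even quality, unlike the real ones, so these false calls do not give the number in the real data. Counts of the 8 genes ran from 213 (Abcg1) to 19469 (Abca1) per library. No 2 libraries of a group were copies, with chi-square per degree of freedom of at least 15.1. The titles number the libraries of a group, and p-values measure the spread between these libraries. The members and lists were chosen with earlier results of these data known. All 8 members were named. By rule, statistics were printed for those called or with an unadjusted p below 0.05 (intervals of a few others were added after their values were seen), and up to 3 called genes a list and comparison were given by size, while other genes of a list named in the text were chosen after their values were seen. Some genes of the lists are counted but not reported by name here. Likeness was ranked by Pearson's r, with the 2 nearest genes named. Upstream sequences came from RefSeq (GRCm38.p6), the build of the files.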

Additional observations from a re-analysis of the deposited data

Results flagged for a closer look

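In 8 genes and the 4 groups of 5 or 6 libraries, 32 sets of values were examined for a library that stood apart from its group by Dixon's criterion, which chance alone meets in about 1 of 20 sets. It picked out 2. Abca1 in WD LKO NAMPT replicate 4 was 372 CPM, while the other 4 libraries of the group lay between 423 and 434 CPM. Lpcat3 in WD WT NAMPT replicate 2 was 129 CPM, while the other 5 lay between 145 and 155 CPM.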

How the results depend on the processing

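The diet calls of Abcg5, Abcg8, Lpcat3 and Mylip kept their direction and their call under all 9 alternatives and in all 9 fits that each left out 1 library. The members called there numbered 4 to 7 across those 9 fits. For NAMPT in WT the members called were 1, against 2 with library size only and with the replicate block (Abca1 added, adjusted p = 0.0198 under the block), 0 with 2 surrogate variables and 0 without sample weights, and 0 to 2 with 1 library left out. Between WD LKO NAMPT and WD WT NAMPT they were 0, against 1 with library size only and 0 to 1 with 1 library left out. In the other 3 comparisons they stayed at 0. Among gene pairs, r of Nr1h3 and Abcg1 turned to 0.18 with library size only. Calls over all genes, in the order diet, NAMPT in WT, NAMPT in LKO, genotype with EV, genotype with NAMPT and interaction, were 3101, 1890, 1, 1, 1120 and 1. They were 1322, 428, 0, 0, 45 and 0 by the edgeR quasi-likelihood test, 1745, 1194, 6, 11, 294 and 13 by DESeq2, and 1201, 192, 0, 1, 38 and 0 without sample weights. Without the filter they were 1970 for diet, 524 for NAMPT in WT, 0 for NAMPT in LKO, 120 for genotype with NAMPT and 4 for the interaction. With only the groups compared they were 653 for NAMPT in WT, 0 for NAMPT in LKO, 5 for genotype with EV and 12 for genotype with NAMPT. With 2 surrogate variables these were 79, 0, 15 and 22, with 0 for the interaction. With the replicate block they were 884, 0, 2 and 412, with 66 for the interaction, which had 3 with library size only. With 1 library left out the 6 counts ran from 843 to 3171, 132 to 2846, 0 to 5, 0 to 5, 0 to 2287 and 1 to 676. The causes were not tested. Library size only moved the median log2 fold change of all genes to 0.16 for NAMPT in WT, -0.12 for genotype with NAMPT and -0.15 for the interaction, and the share of calls that were higher from 45.6% to 32.6% for diet, from 57.1% to 88.1% for NAMPT in WT and from 52.5% to 24.3% for genotype with NAMPT, so the Abca1 value of 0.36 for NAMPT in WT under that scaling includes the shift. Replicate numbers do not mark shared animals, and the deviations of same-numbered libraries correlated between -0.38 and 0.42, so they were not treated as pairs. With 3 chow libraries, leaving out 1 leaves 2, and Nr1h2 and Abcg1 lost their calls without chow replicate 1 or 2.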
